A study of Mus musculus with 2 samples.

Results

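Transcripts of apolipoproteins, lipoprotein lipase and lipoprotein receptors were examined in kidneys of male mice, as 36 named genes whose log2 RMA value was read from the probe set with the highest mean over the arrays. Of these, 34 had a probe set with exactly 1 gene symbol, out of 22180 such genes on the array. For Apoc4 the symbol stood only on a probe set shared with Apoc2, and Lipc is not analysed here. Iah1-KO mice carry a systemic knockout of Iah1, which encodes an esterase related to the yeast enzyme that hydrolyses isoamyl acetate, and Iah1-WT mice are their wild-type controls. Both groups were male, were moved from chow to a high-fat diet when 6 weeks old, stayed on it for 12 weeks (to 18 weeks of age), lived 1 to a cage and were killed after 4 hours without food. RNA of 3 mice per genotype was pooled and hybridised to 1 array, so n = 1 pool per genotype, the spread between mice is not known, and the differences below have no replicate check and no test. The sources used here give neither the strain nor the part of Iah1 that was deleted.

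Lipoproteins are particles that carry triglyceride and cholesterol through the blood. Apolipoproteins wrap the particles and dock them to enzymes and receptors, lipoprotein lipase on the capillary wall releases fatty acids from triglyceride, and receptors of the LDL receptor and scavenger receptor families take up particles or their lipids. Most apolipoproteins are made by liver and intestine, while kidney tubules take up filtered apolipoproteins and burn fatty acids delivered by the blood.

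The labels were first checked in the arrays. Iah1 was at 3.60 in the Iah1-KO pool, against 9.09 in the Iah1-WT pool (log2 RMA values), the furthest difference of all 22180 genes. All 6 proximal tubule markers were measured at or above 10.37 in both pools, among them Slc34a1 and Kap. The array medians over all probe sets were 4.03 (Iah1-KO) and 4.05 (Iah1-WT), and a value below them is not shown to be above background. A value of 6 was used as a mark of clearly measured genes, which 7671 genes reached in at least 1 pool.

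The lipoprotein genes as a whole differed little between the pools. Their median difference (Iah1-KO minus Iah1-WT, log2) was 0.020, with 18 of 34 higher and 16 lower in the Iah1-KO pool, and the median over all genes was -0.0024. The median size of a difference, regardless of direction, was 0.13 for the 34 genes and 0.13 for all genes. Among genes that reached 6 in at least 1 pool, it was 0.12 for 19 lipoprotein genes and 0.091 for all 7671. At least 1.2-fold apart were 6 of the 34 (17.6%), against 21.9% of all genes, so their share past this threshold was near that of the array. Of the 6, Apoa2 and Apoc2 were higher in the Iah1-KO pool and Angptl4, Apoa5, Apod and Msr1 lower. Background shares by direction were 10.3% for higher and 11.6% for lower genes.

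**Figure D1:**
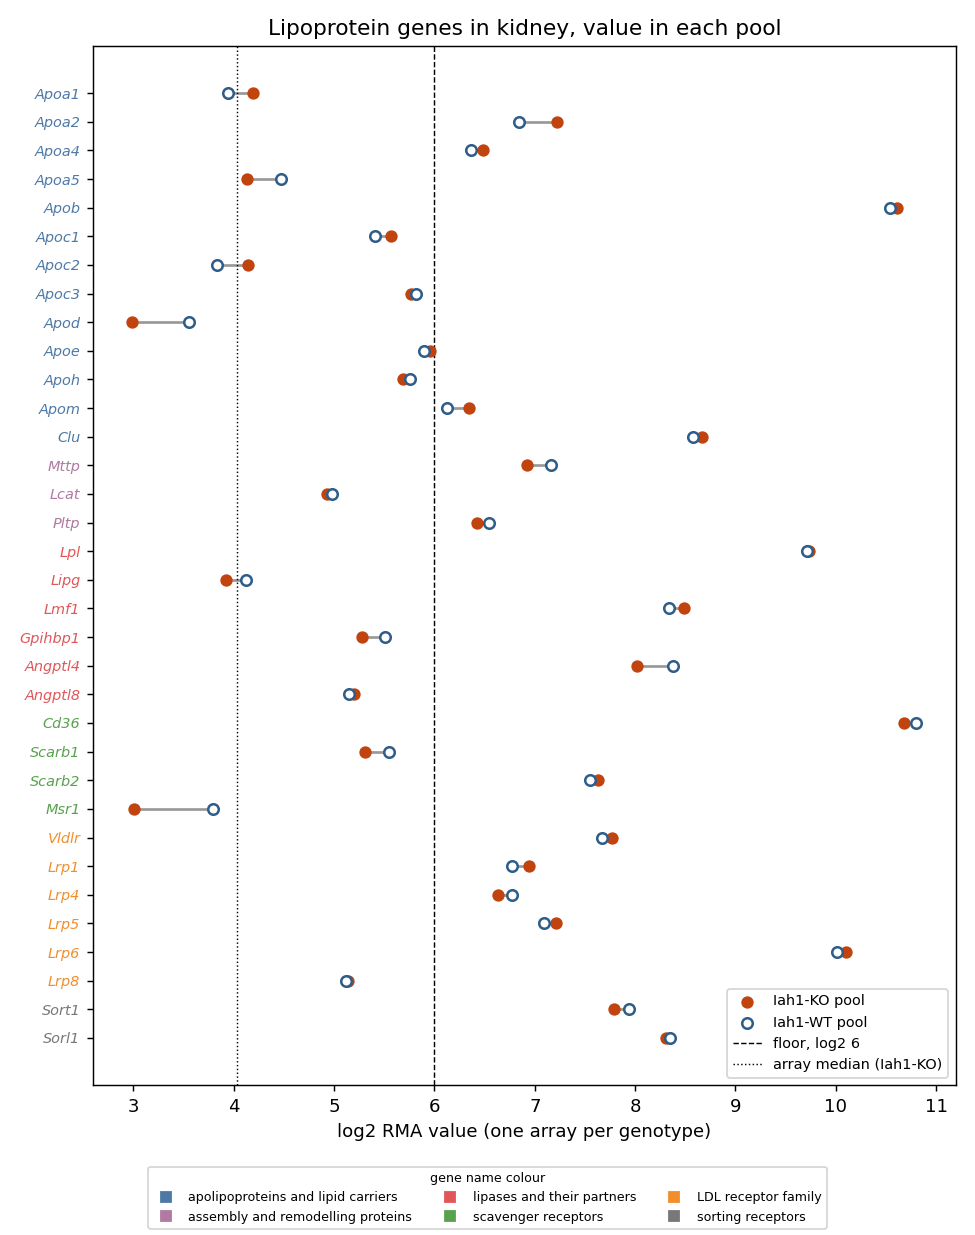
Log2 RMA value (horizontal axis) of each of the 34 lipoprotein genes (rows, name coloured by role) in the Iah1-KO pool (filled) and the Iah1-WT pool (open), 1 array each. The pairs lie close together for most genes; the widest gaps are those of Msr1 and Apod, whose values are below both array medians.

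How clearly a gene was measured divided these 6. The mark of 6 was reached by 19 of the 34 genes, each of them in both pools, and of these only Apoa2 and Angptl4 were 1.2-fold apart (10.5%, against 9.13% of the 7671 genes). Dim genes scatter more on these arrays, so each difference was also set against a local robust SD, the scaled median absolute deviation of the difference over the 500 genes nearest in mean value. Beyond 2 local robust SDs lay 4 of the 34 genes (Angptl4, Msr1, Apoa2 and Apod), which is 11.8%, against 6.85% of all genes. This SD describes the spread over genes on 2 arrays and not the spread between mice.

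**Figure D2:**
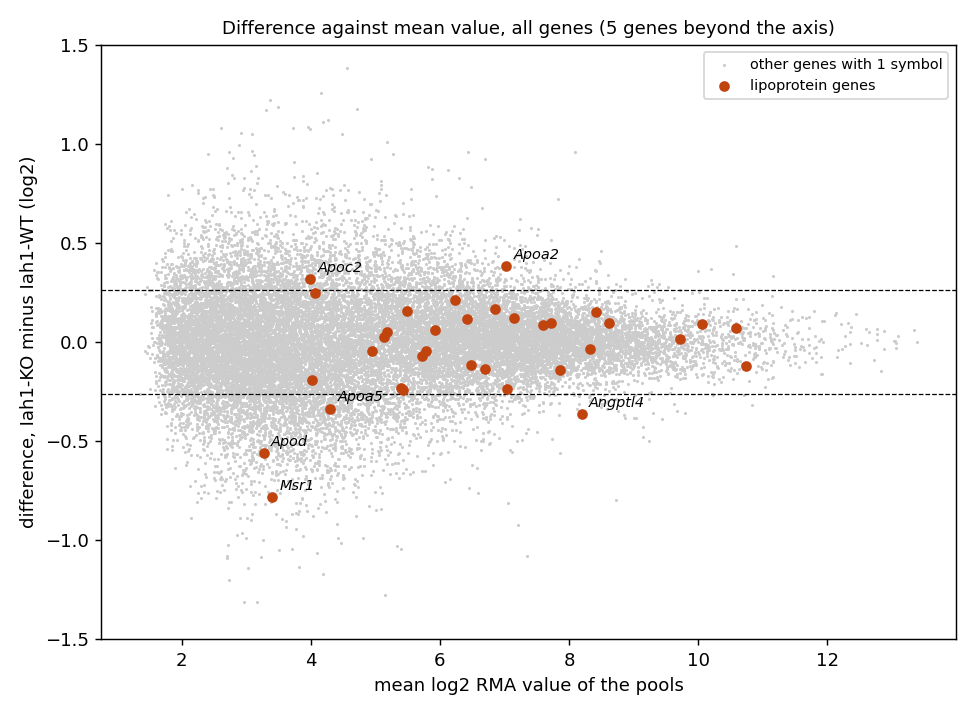
Difference between pools (Iah1-KO minus Iah1-WT, log2, vertical axis) against the mean log2 RMA value (horizontal axis) for all genes (grey; 5 lie beyond the axis) and the 34 lipoprotein genes (red), with dashed lines at 1.2-fold. The grey cloud is wider at low values, where Msr1, Apod, Apoa5 and Apoc2 lie, while Apoa2 and Angptl4 lie at the edge of the narrower part.

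Among the apolipoproteins and lipid carriers, 9 of 13 were higher in the Iah1-KO pool, with a median difference of 0.09. Over the array, 10934 of 22180 genes were higher in the Iah1-KO pool, as were 4016 of the 7671 that reached the mark of 6. All 5 genes of this group that reached the mark had positive differences, between 0.071 and 0.38. Apoa2, the second most abundant protein of HDL, was furthest: it was at 7.22 in the Iah1-KO pool, against 6.84 in the Iah1-WT pool (probe set 17219242), a 30.3% higher signal. That is a difference of 0.38 against a local robust SD of 0.13, and 8 of the 500 nearest genes differed at least as far. Apom, the HDL carrier of sphingosine 1-phosphate, was at 6.34 in the Iah1-KO pool and 6.13 in the Iah1-WT pool. Apoa4, an apolipoprotein of intestinal chylomicrons and HDL, was at 6.48 in the Iah1-KO pool and 6.37 in the Iah1-WT pool. The difference of Apom, 0.21, was within 2 local robust SDs, as was that of Apoa4, 0.12.

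Clu, a secreted chaperone also called apolipoprotein J, was at 8.67 in the Iah1-KO pool and 8.57 in the Iah1-WT pool. Apob, the structural protein of chylomicrons, VLDL and LDL, was at 10.61 in the Iah1-KO pool and 10.54 in the Iah1-WT pool. Both were thus close to equal in the pools, with differences of 0.09 and 0.07. The other 8 apolipoprotein genes were below 6 in both pools. Of these, Apod, a lipocalin that binds small lipids, was at 2.99 in the Iah1-KO pool and 3.55 in the Iah1-WT pool, both below the array medians. Its difference of -0.56 therefore compares values that are not shown to be above background.

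Several genes of the small exchangeable apolipoproteins stand in clusters, whose members could be compared in genome order (RefSeq, mouse assembly GRCm38.p6). Apoa2, on chromosome 1, lies outside these clusters. On chromosome 7 the order is Apoc2, Apoc4, Apoc1 and Apoe, with 1 predicted gene between them, and the 3 measured with a probe set of their own were all higher in the Iah1-KO pool. Apoc2, the activator of lipoprotein lipase, was at 4.15 in the Iah1-KO pool and 3.83 in the Iah1-WT pool, a difference of 0.32. Apoc1, which slows particle uptake and lipolysis, was at 5.57 in the Iah1-KO pool and 5.41 in the Iah1-WT pool, and Apoe, the ligand of remnant receptors, at 5.95 and 5.89. The probe set shared by Apoc4 and Apoc2 went the other way, at 4.03 in the Iah1-KO pool and 4.29 in the Iah1-WT pool, so the direction for Apoc2 is uncertain. Apoc2 was also below the array median in the Iah1-WT pool. The differences of Apoc2, Apoc1 and Apoe were each within 2 local robust SDs, and all their values were below 6. Of all 22180 genes, 10934 were higher in the Iah1-KO pool.

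On chromosome 9 the neighbours Apoa1, Apoc3, Apoa4 and Apoa5, with no other gene between them, did not share a direction. Apoa1, the main protein of HDL, was at 4.19 in the Iah1-KO pool and 3.94 in the Iah1-WT pool, and Apoc3, an inhibitor of triglyceride clearance, was at 5.77 in the Iah1-KO pool and 5.82 in the Iah1-WT pool. Apoa5, which promotes triglyceride clearance, was at 4.14 in the Iah1-KO pool and 4.47 in the Iah1-WT pool. The differences along the cluster were thus 0.25, -0.05, 0.12 and -0.34, each within 2 local robust SDs. Apoh, beta-2-glycoprotein I, which lies outside both clusters, was at 5.68 in the Iah1-KO pool and 5.75 in the Iah1-WT pool.

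The promoter windows of Apoa2, Apoc2 and Apoa5 are printed here to show the sequence around the starts of apolipoprotein genes at least 1.2-fold apart in either direction. Each runs from 250 bases before to 50 after an annotated start, 5′ to 3′ (RefSeq, build GRCm38.p6; the sources used here name no build for the array). Capitals mark matches, on either strand, to AGGTCA (the binding element of many nuclear receptors, which act on it in pairs), to TATAAA or to the E-box CACGTG. The window of Apod, an apolipoprotein gene also at least 1.2-fold apart, holds no such match and is not printed. Apoa2 has 2 annotated starts, and of the 2 overlapping windows of Apoa5 the upstream one is shown.
Apoa2 (chr1:171221314-171221613, + strand): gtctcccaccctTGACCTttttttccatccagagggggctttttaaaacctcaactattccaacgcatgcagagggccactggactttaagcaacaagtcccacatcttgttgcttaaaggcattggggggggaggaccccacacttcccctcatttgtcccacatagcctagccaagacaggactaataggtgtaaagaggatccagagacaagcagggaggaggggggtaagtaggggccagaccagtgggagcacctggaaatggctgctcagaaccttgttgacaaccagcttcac
Apoa2 (chr1:171224804-171225103, + strand): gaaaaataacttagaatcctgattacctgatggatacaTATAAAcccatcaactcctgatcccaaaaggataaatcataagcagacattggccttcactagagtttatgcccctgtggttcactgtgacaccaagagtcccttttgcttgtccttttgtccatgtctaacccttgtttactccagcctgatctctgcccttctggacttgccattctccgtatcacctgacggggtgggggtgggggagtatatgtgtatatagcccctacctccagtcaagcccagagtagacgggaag
Apoc2 (chr7:19677892-19678191, - strand): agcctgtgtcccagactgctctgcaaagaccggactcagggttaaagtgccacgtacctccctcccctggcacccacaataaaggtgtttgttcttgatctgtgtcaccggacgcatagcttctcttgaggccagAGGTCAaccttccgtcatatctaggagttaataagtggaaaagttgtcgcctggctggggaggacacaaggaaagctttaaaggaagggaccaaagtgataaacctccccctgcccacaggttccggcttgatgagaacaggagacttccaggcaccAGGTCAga
Apoa5 (chr9:46268358-46268657, + strand): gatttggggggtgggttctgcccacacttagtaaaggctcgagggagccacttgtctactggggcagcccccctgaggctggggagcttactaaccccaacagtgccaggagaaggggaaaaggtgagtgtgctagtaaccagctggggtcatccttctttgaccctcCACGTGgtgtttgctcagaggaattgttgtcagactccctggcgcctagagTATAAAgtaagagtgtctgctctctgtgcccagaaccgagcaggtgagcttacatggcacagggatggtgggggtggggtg

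Windows were listed for 23 of the 36 genes. These 23 genes had 32 windows. AGGTCA is in 7 of the 32 (21.9%), against 16.3% of all 32851 mouse promoter windows. Its holders Apoa2, Apoc2, Apoh, Cd36 and Lrp8 differed by 0.38, 0.32, -0.07, -0.12 and 0.02, in both directions, and Apoc4 and Lipc, which hold it too, have no value of their own here. TATAAA is in 6 of the 32 windows (18.8%, against 13.6% of all windows) and CACGTG in 3 (9.38%, against 7.15%). The 2 overlapping windows of Apoa5 hold the same TATAAA and the same CACGTG, so these sites are counted in both windows. By gene, TATAAA is in 5 of the 23 and CACGTG in 2. These matches describe letters in a window, and binding was not measured.

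The 3 genes of particle assembly and remodelling were all lower in the Iah1-KO pool (median -0.12), and none was 1.2-fold apart. Mttp, which loads lipid onto Apob, was at 6.92 in the Iah1-KO pool and 7.16 in the Iah1-WT pool. Its difference of -0.24 was within 2 local robust SDs, and 47 of the 500 nearest genes differed at least as far. Pltp, which moves phospholipid between particles, was at 6.42 in the Iah1-KO pool and 6.54 in the Iah1-WT pool. Lcat, which esterifies cholesterol on HDL, was at 4.93 in the Iah1-KO pool and 4.98 in the Iah1-WT pool. Each of the 3 lay within 2 local robust SDs.

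Among the lipases and their partners, Angptl4 stood apart. This secreted inhibitor of lipoprotein lipase, a gene induced by fasting, fatty acids and PPAR receptors, was at 8.01 in the Iah1-KO pool and 8.38 in the Iah1-WT pool (probe set 17343628, chromosome 17). The 1.29-fold lower value is a difference of -0.36 against a local robust SD of 0.10, and 3 of the 500 nearest genes differed at least as far. Measured in local robust SDs, its difference was the furthest of the 34 genes. Its enzyme did not differ to this extent: Lpl was at 9.73 in the Iah1-KO pool and 9.71 in the Iah1-WT pool in its brighter probe set. The dimmer probe set of Lpl was at 5.21 in the Iah1-KO pool and 5.55 in the Iah1-WT pool, a difference of -0.34. Its 2 probe sets therefore disagreed, and their mean difference was -0.16.

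The other partners of lipoprotein lipase differed in both directions. Lmf1, an endoplasmic reticulum protein needed for lipase folding, was at 8.49 in the Iah1-KO pool and 8.34 in the Iah1-WT pool. Gpihbp1, which carries the lipase across the capillary endothelium, was at 5.28 in the Iah1-KO pool and 5.51 in the Iah1-WT pool. Angptl8, a further angiopoietin-like regulator of the lipase, was at 5.20 in the Iah1-KO pool and 5.15 in the Iah1-WT pool. Lipg, the endothelial lipase that acts on HDL phospholipid, was at 3.92 in the Iah1-KO pool, below that array's median, and 4.12 in the Iah1-WT pool. Apart from Angptl4, all of this group were under 1.2-fold apart in their brightest probe set and within 2 local robust SDs.

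Gpihbp1 is known from capillary endothelium, and its difference of -0.23 was set beside the endothelial markers. Of these, 6 of 7 were higher in the Iah1-KO pool, with a mean level of 7.84 in the Iah1-KO pool and 7.73 in the Iah1-WT pool, and none was at or below the array median. Emcn and Kdr differed by 0.04 and -0.13. The direction of Gpihbp1 was thus opposite to the median of the endothelial markers, 0.11, and the part of cell makeup in it was not tested. In pooled whole kidney RNA, fewer cells of a type and less RNA per cell cannot be told apart.

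**Figure D3:**
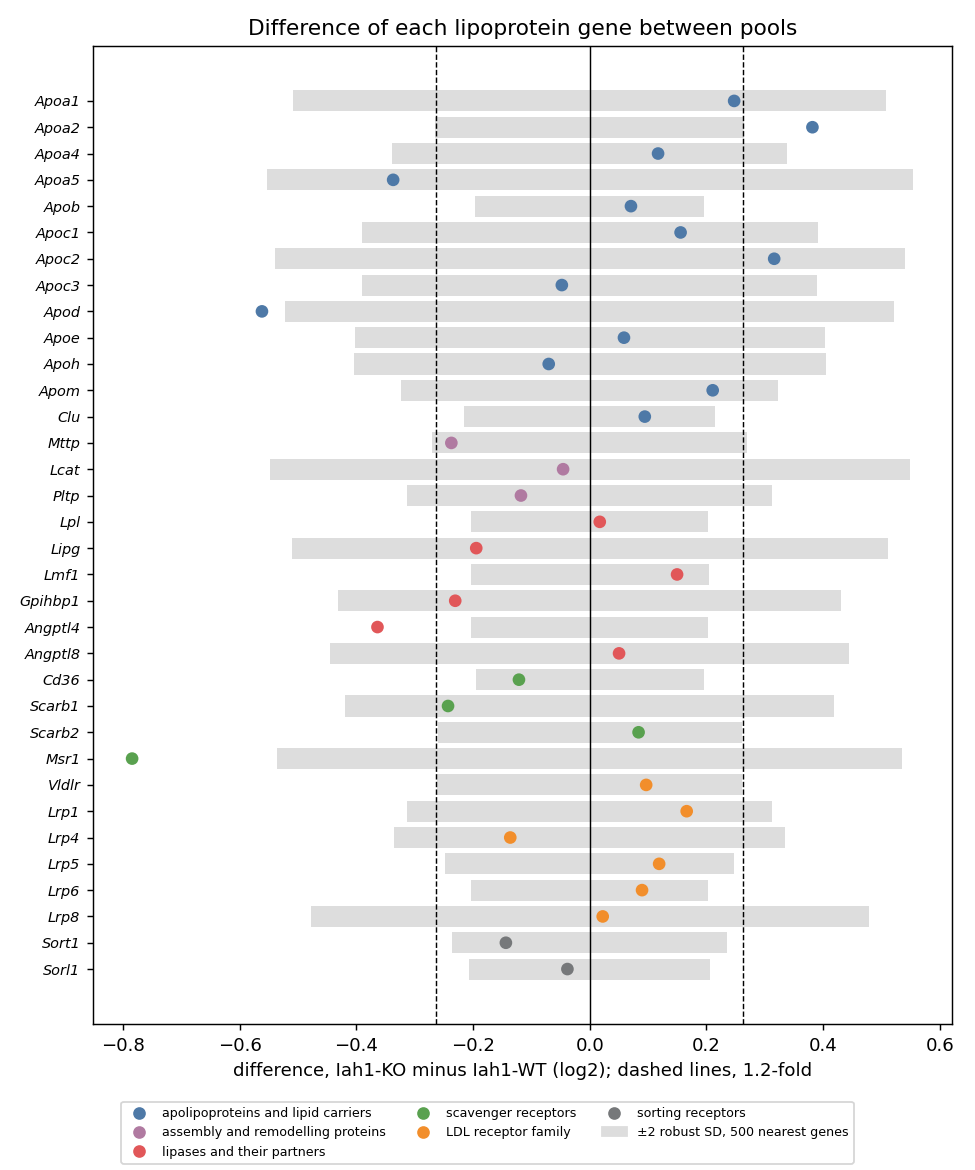
Difference between pools (Iah1-KO minus Iah1-WT, log2, horizontal axis) of each of the 34 genes (rows), coloured by role. Grey bars span 2 local robust SDs to either side of 0 and dashed lines mark 1.2-fold; Angptl4, Msr1, Apoa2 and Apod lie outside their bars.

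Of the 4 scavenger receptors, 3 were lower in the Iah1-KO pool, with a median of -0.18. The median was -0.019 over Cd36 and Scarb2, which reached the mark of 6, and the other 2, Scarb1 and Msr1, were dim. Cd36, the fatty acid translocase that also binds oxidised LDL, was at 10.68 in the Iah1-KO pool and 10.80 in the Iah1-WT pool. Scarb1, the HDL receptor for selective cholesterol ester uptake, was at 5.31 in the Iah1-KO pool and 5.55 in the Iah1-WT pool. Scarb2, a lysosomal membrane protein and receptor for beta-glucocerebrosidase, was at 7.63 in the Iah1-KO pool and 7.55 in the Iah1-WT pool. None of these 3 was 1.2-fold apart or beyond 2 local robust SDs.

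Msr1, the class A scavenger receptor of macrophages, was at 3.01 in the Iah1-KO pool and 3.79 in the Iah1-WT pool. The difference of -0.78 was numerically the furthest of the 34 genes and the only one past 1.5-fold, which 2.42% of all genes passed, but both values were below the array medians. Of 8 macrophage markers, 5 were higher and 3 lower in the Iah1-KO pool, with a mean level of 6.16 in the Iah1-KO pool and 6.10 in the Iah1-WT pool, and none was below the array median. Adgre1, the F4/80 antigen, differed by -0.73, at 4.37 in the Iah1-KO pool and 5.10 in the Iah1-WT pool; it and Cd68, at -0.23, are named here after their values were seen. In the opposite direction, Lyz2 differed by 0.63, Cx3cr1 by 0.41 and Csf1r by 0.11, while C1qb differed by -0.01. The macrophage markers thus ran in both directions, with a median of 0.08, and the part of macrophage content in its value was not tested.

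The LDL receptor family differed little between the pools. Of its 6 genes, 5 were higher in the Iah1-KO pool, the median was 0.09, all lay between -0.14 and 0.17, and none was 1.2-fold apart. Lrp1, a large endocytic receptor for remnants and protease complexes, was at 6.94 in the Iah1-KO pool and 6.77 in the Iah1-WT pool. Vldlr, a receptor for Apoe-bearing triglyceride-rich particles and for reelin, was at 7.77 in the Iah1-KO pool and 7.67 in the Iah1-WT pool. Lrp8, the other reelin receptor, was at 5.14 in the Iah1-KO pool and 5.12 in the Iah1-WT pool. The members best known as Wnt co-receptors behaved alike in direction: Lrp5 was at 7.21 in the Iah1-KO pool and 7.09 in the Iah1-WT pool, and Lrp6 at 10.10 in the Iah1-KO pool and 10.01 in the Iah1-WT pool. The second probe set of Lrp6 differed by 0.02. The exception in direction was Lrp4, the agrin receptor and Wnt antagonist, at 6.63 in the Iah1-KO pool and 6.77 in the Iah1-WT pool.

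Both sorting receptors were slightly lower in the Iah1-KO pool. Sort1, sortilin, which steers Apob-bearing particles and lipase within the secretory path, was at 7.79 in the Iah1-KO pool and 7.94 in the Iah1-WT pool, and its second probe set differed by -0.07. Sorl1, a related receptor of the endosomal path, was at 8.31 in the Iah1-KO pool and 8.35 in the Iah1-WT pool. Differences of -0.14 and -0.04 were both within 2 local robust SDs.

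Other genes of lipoprotein assembly, uptake and cholesterol efflux gave the wider pathway. Of 56 listed, 49 were measured, with 22 higher and 27 lower in the Iah1-KO pool and a median of -0.03. At least 1.2-fold apart were 7 of the 49 (14.3%, against 21.9% of all genes), and 2 of the 31 that reached the mark of 6 (6.45%, against 9.13%). Furthest among those 31 was Apoo, at 6.38 in the Iah1-KO pool and 6.88 in the Iah1-WT pool. Although named apolipoprotein O, its product is known as a subunit of the MICOS complex of the mitochondrial inner membrane, as is that of Apool, at 8.04 in the Iah1-KO pool and 8.25 in the Iah1-WT pool. Lrp11, a further gene named after the LDL receptor-related proteins, was at 7.09 in the Iah1-KO pool and 6.83 in the Iah1-WT pool. The dimmer probe set of Lrp11 was at 3.48 in the Iah1-KO pool and 3.44 in the Iah1-WT pool, a difference of 0.04. Nr1h4, the bile acid receptor FXR, was at 8.72 in the Iah1-KO pool and 8.98 in the Iah1-WT pool. Against local robust SDs of 0.16 for Apoo, 0.10 for Nr1h4 and 0.10 for Apool, the differences of -0.50, -0.25 and -0.21 were beyond 2 SDs, as were those of 6.85% of all genes. The efflux transporter Abca1 and the endocytic receptors of the proximal tubule, Lrp2 and Cubn, differed by -0.12, -0.05 and -0.06.

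**Figure D4:**
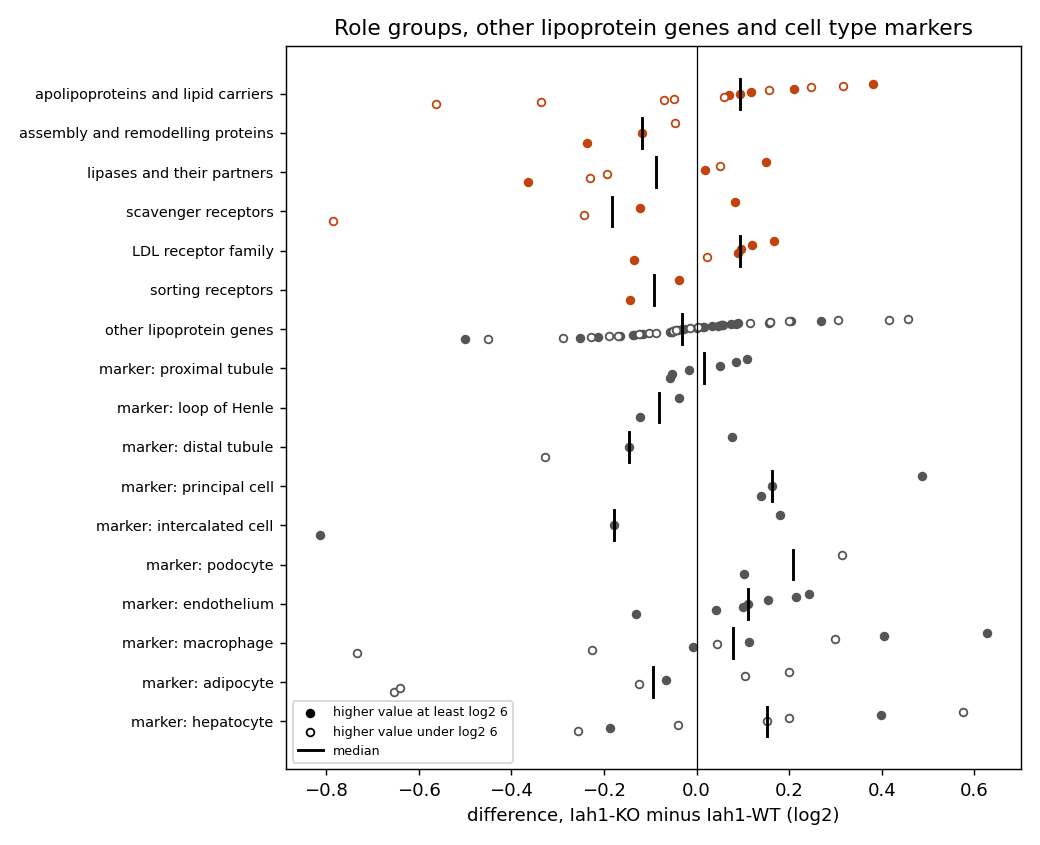
Differences between pools (Iah1-KO minus Iah1-WT, log2, horizontal axis) of single genes (points) in each role group (red), among other lipoprotein genes and among cell type markers (grey); filled points reached 6 in at least 1 pool and black bars are medians. Most lists hold points on both sides of 0, and the points farthest from 0 in the role groups, Msr1 and Apod, are open.

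Markers of cells that are rich in lipoprotein transcripts outside the kidney were read as well. Of 7 hepatocyte markers 4 were higher and 3 lower in the Iah1-KO pool, with a mean level of 6.14 in the Iah1-KO pool and 6.02 in the Iah1-WT pool, and 1 was below the array median, in the Iah1-WT pool only. Alb was at 8.68 in the Iah1-KO pool and 8.28 in the Iah1-WT pool. Ttr was at 10.98 in the Iah1-KO pool and 11.17 in the Iah1-WT pool. Ahsg, below 6 in both pools and named after its value was seen, was at 5.68 (Iah1-KO) and 5.11 (Iah1-WT). At least 1.2-fold apart were 2 of the 7 (28.6%, against 21.9% of all genes), Alb and Ahsg, both higher. Apoa2 shared its direction with the 4 higher markers, Alb and Ahsg among them, and not with the 3 lower, Ttr and Fgb among them. Fgb, below 6 in both pools and also named after its value was seen, differed by -0.26. Of the 7, only Alb and Ttr reached the mark of 6. Of 6 adipocyte markers measured 2 were higher and 4 lower in the Iah1-KO pool, with a mean level of 4.76 in the Iah1-KO pool and 4.96 in the Iah1-WT pool, and 3 were below the array median in at least 1 pool. Fabp4, which capillary endothelium also expresses, was the only one above 6, and it differed by -0.07. The other adipocyte markers lay between 3.44 and 4.91. Lep and Cidec, named after their values were seen, differed by -0.65 and -0.64, while Adipoq, Plin1 and Retn differed by -0.12, 0.10 and 0.20. Of the 6 adipocyte markers, 2 were at least 1.2-fold apart (33.3%, against 21.9% of all genes), Lep and Cidec, both lower. Both were below 6 in both pools, and Lep was below the array median in the Iah1-KO pool. The part of liver or fat cells in the differences of Apoa2 and Angptl4 was not tested.

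Nephron segment markers differed by both signs. Proximal tubule markers lay between -0.06 and 0.11, with Slc34a1 at 0.05 and Kap at -0.02. Umod and Slc12a1 of the loop of Henle differed by -0.04 and -0.12, and Slc12a3 and Calb1 of the distal tubule by 0.08 and -0.14. In the collecting duct, the principal cell markers Aqp2, Aqp3 and Scnn1g differed by 0.49, 0.14 and 0.16, and the intercalated cell markers Atp6v1g3, Foxi1 and Slc4a1 by -0.81, -0.18 and 0.18. Aqp2 and Atp6v1g3 lay beyond 2 local robust SDs. Of the 500 nearest genes, 9 differed at least as far as Aqp2 and 0 as far as Atp6v1g3. Podxl of podocytes differed by 0.10.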

How the data were processed

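Kidney RNA was measured on 2 Affymetrix arrays, 1 per genotype, each carrying RNA pooled from 3 mice, per the labels and the series description. The deposited log2 values, 1 for each probe set, come from RMA, run by the authors with version 1.3.0 of Affymetrix Expression Console (submitters' processing notes). RMA corrects background, quantile-normalizes the arrays and summarises probes on the log2 scale. A shift of most transcripts would not show, and small signals give compressed differences. Values of different probe sets are not comparable with each other.

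Of 41345 probe sets, GEO's platform annotation gave 1 symbol to 23521, several to 1814 and none to 16010. The 23521 covered 22180 genes, and the probe set with the highest mean was used for the 1082 genes with several. Differences (Iah1-KO minus Iah1-WT) were taken with Python 3.11.15, numpy 2.4.6 and pandas 2.3.3, and the loess alternative (span 0.3) with statsmodels 0.14.6. The local robust SD is 1.4826 times the median absolute deviation over the 500 nearest genes. It was also run on simulated differences drawn with these same SDs, which checks the calculation and not its suitability here. With 1 array per genotype no p-value or standard error was computed, and precision is limited by the number of arrays.

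All 36 listed genes were named, and also Iah1, the 4 other lipoprotein genes furthest apart among those that reached 6, and, of each marker list, the 2 genes of highest value and those at least 1.2-fold apart, among genes that reached 6. Abca1, Lrp2, Cubn, Adgre1, Cd68, Adipoq, Plin1, Retn, Lep, Cidec, Ahsg, Fgb and Slc4a1, which fall outside this rule, were chosen after their values were seen. The subunits of the MICOS complex other than Apoo and Apool also fall outside it, and their list was chosen after the value of Apoo was seen. The members and lists were chosen with earlier results of these data known. Listed genes without a probe set of their own were not analysed here.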

Additional observations from a re-analysis of the deposited data

How the results depend on the processing

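No paired analysis was possible because each genotype has 1 array. The median difference of the 34 genes (0.020) has no stable sign: it was -0.036 as a mean, 0.084 over the 19 genes that reached 6, -0.038 with probe sets of several symbols added and -0.0079 with the mean over probe sets. The number of genes at least 1.2-fold apart (6) was 1 at 1.5-fold, 16 at 1.1-fold, and 2 over genes that reached 6. The share over all genes was 2.42% at 1.5-fold, and 9.13% at 1.2-fold over those that reached 6. No such share was taken at 1.1-fold, so the 16 cannot be set against the array. The median of the lipases and their partners (-0.09) was -0.18 with the mean over probe sets and 0.017 over genes that reached 6, and that of the scavenger receptors (-0.18) was -0.019 over genes that reached 6. Medians of the other role groups and of the other lipoprotein genes kept their sign in every alternative run. Of the 34 single differences, 2 changed sign: Lpl, to -0.16 with the mean over probe sets, and Apoc2, to -0.26 with probe sets of several symbols added, an alternative for single genes chosen after seeing the data, which left 5 genes 1.2-fold apart; median centring and loess changed the sign of 0. Signal near the array median limits Apoa1, Apoa5, Apoc2, Apod, Lipg and Msr1. Limits common to all values are the single pool per genotype, unknown spread between mice and probe sets that cannot separate Apoc4 from Apoc2.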

Other observations

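The low value of Apoo in the Iah1-KO pool led to the other subunits of the MICOS complex, which shapes the cristae of mitochondria; this list was chosen after the value of Apoo was seen. Of 7 subunits, 6 were lower in the Iah1-KO pool, with a median of -0.08 on the log2 scale. Over the array, 11192 of 22180 genes were lower. The 6 include Apoo itself and Apool, both already described. The other lower subunits, Immt, Chchd3, Chchd6 and Micos10, each lay within 1 local robust SD, and Chchd6 and Micos10 were below 6 in both pools. At least 1.2-fold apart were 2 of the 7 (28.6%, against 21.9% of all genes), in opposite directions. Those were Apoo at -0.50 and Micos13, at 7.57 in the Iah1-KO pool and 7.21 in the Iah1-WT pool. The difference of Micos13, 0.37, was beyond 2 local robust SDs. Immt, the core subunit mitofilin, was at 10.16 in the Iah1-KO pool and 10.23 in the Iah1-WT pool, and Chchd3 was at 8.71 in the Iah1-KO pool and 8.72 in the Iah1-WT pool.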
